A study of Mus musculus with 8 samples.

Results

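The genes described here are the 8 alpha-defensin genes that held nearly all counts assigned to alpha-defensin genes in this table of sorted mouse Paneth cells: Defa24, Defa30, Defa39, Defa38, Defa21, Defa22, Defa29 and Defa17. They were chosen by their abundance in counts, as the 8 with the most counts of 28 protein-coding alpha-defensin genes in a table of 55414 genes. Their levels are therefore given as a description, with no test. In an example experiment of the study, Defa3, Defa2, Defa23 and Defa20 were also among the most abundant alpha-defensin genes. Those genes held 40273, 2, 4 and 24 counts over all libraries here, so the order by counts need not be that of transcript levels. The rows of the 8 genes were found by Ensembl gene ID through the GENCODE mouse annotation, and all 8 were found. Read counts per gene were measured in 8 RNA-seq libraries of Paneth cells sorted from small intestine by FACS. A transgenic group (TG, labelled DT TG) held 4 libraries from mice whose Paneth cells express diphtheria toxin, an inhibitor of protein synthesis, and a wild type group (WT) held the other 4. The study lists the series as cells purified after mature Paneth cells were depleted, so the sorted TG cells are those present after depletion, and whether they made the toxin themselves was not tested. It describes its sorted samples as coming from individual C57BL/6J mice, while the labels of these libraries name no animal. The promoter behind the toxin and the age and sex of the mice are not stated in the labels.

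Paneth cells sit at the bottom of the crypts of the small intestine and release antimicrobial proteins from large granules. Alpha-defensins, known as cryptdins in the mouse, are made as precursors whose signal sequence and pro-segment are followed by a short, cysteine-rich peptide. The matrix metalloproteinase Mmp7 cuts the pro-segment away in mouse Paneth cells, and disulfide bonds between cysteines hold the mature peptide in shape. Some relatives of the cryptdins share the precursor and carry another cysteine-rich end.

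Total counts per library ranged from 13107397 to 16218434. Counts of 4 Y-linked genes were 0 in replicates 1 and 2 of either group and 897 to 1564 in replicates 3 and 4, so each group held both kinds of library. Lyz1, the lysozyme of Paneth granules, ranked first and took 16.9 to 20.7% of the counts in TG and 14.7 to 16.8% in WT. Mitochondrial genes took 1.15 to 1.53% in TG and 0.566 to 1.10% in WT. For both shares the groups did not overlap. Of 9 enterocyte marker genes, 5 were called higher in TG, where 8.26% of all tested genes were called higher, at a summed share of 0.0151 to 0.0277% against 0.00642 to 0.0114% in WT. None of 6 goblet cell markers was called, and they took 0.862 to 1.01% in TG and 0.908 to 1.13% in WT. All 5 neutrophil markers and 2 of 8 immune markers, both sets known for other cells of the mucosa, were at 0 counts. The 6 Paneth cell markers, Defa24 among them, took 36.5 to 40.4% in TG and 34.7 to 39.5% in WT, with 3 called lower (Mmp7, Ang4 and Mptx2), 0 called higher and a median log2 fold change of -0.38, where 9.65% of all tested genes were called lower. Without 1 library at a time, 3 to 5 of the enterocyte markers were called higher and 1 to 3 of the Paneth cell markers lower, with the fewest of the latter without TG replicate 2 (Mptx2 alone). Over all genes, 485 to 1045 were called higher and 553 to 1183 lower in those fits, with 570 lower without TG replicate 2. The part of these marker differences in the alpha-defensin results was not tested.

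All 8 genes lie in 1 locus on chromosome 8 (GRCm39), and each canonical transcript has 2 exons. The last exon codes for the end of the precursor that carries the cysteines. The coding part of that exon is shown for 6 of the genes, because it separates the members into 3 sequence groups and shows how few bases part the near-identical copies. Capitals mark the in-frame cysteine codons. Sequences were read on the coding strand from the GRCm39 reference at the GENCODE coordinates, which are chr8:22225284-22225393 for Defa24, chr8:21625410-21625519 for Defa30, chr8:21516330-21516439 for Defa21 and chr8:21653062-21653171 for Defa22 on the plus strand, and chr8:22192644-22192822 for Defa39 and chr8:21585090-21585268 for Defa38 on the minus strand.
Defa24: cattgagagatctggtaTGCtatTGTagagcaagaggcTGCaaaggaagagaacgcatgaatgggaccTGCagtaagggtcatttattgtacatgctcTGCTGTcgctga
Defa30: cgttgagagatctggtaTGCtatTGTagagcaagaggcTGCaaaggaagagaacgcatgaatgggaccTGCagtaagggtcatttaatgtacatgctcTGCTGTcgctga
Defa21: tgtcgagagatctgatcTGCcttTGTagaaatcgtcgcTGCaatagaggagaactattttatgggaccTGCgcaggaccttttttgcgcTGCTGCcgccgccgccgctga
Defa22: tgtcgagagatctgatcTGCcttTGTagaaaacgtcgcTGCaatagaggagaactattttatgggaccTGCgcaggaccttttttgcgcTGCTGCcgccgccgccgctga
Defa39: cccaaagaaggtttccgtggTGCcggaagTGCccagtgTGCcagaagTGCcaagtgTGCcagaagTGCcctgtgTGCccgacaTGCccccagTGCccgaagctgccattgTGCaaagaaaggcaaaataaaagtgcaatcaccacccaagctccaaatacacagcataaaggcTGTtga
Defa38: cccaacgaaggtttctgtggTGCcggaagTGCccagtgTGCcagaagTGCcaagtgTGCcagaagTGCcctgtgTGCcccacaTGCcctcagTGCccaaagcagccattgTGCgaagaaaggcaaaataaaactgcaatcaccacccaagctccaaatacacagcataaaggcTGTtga

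The first group held Defa24, Defa30 and Defa17, whose last exon codes with 110 bases and 6 cysteine codons. Defa24 (ENSMUSG00000064213, 22224506 to 22225490, plus strand) and Defa30 (ENSMUSG00000074444, 21609255 to 21625621, plus strand) lie far apart in the locus, and their coding sequences of 282 bases differed at 4 bases, 2 of them in the last exon. Defa17 (ENSMUSG00000060208, 22145772 to 22146753, plus strand) was 95.7% identical to Defa24 and 97.2% to Defa30. The second group held Defa21 (ENSMUSG00000074447, 21515557 to 21516533, plus strand) and Defa22 (ENSMUSG00000074443, 21652290 to 21653265, plus strand), which have the same coding lengths and 6 cysteine codons. Their coding sequences differed at 2 bases, 1 of them in the last exon.

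The third group held Defa39 (ENSMUSG00000058618, 22192531 to 22200234), Defa38 (ENSMUSG00000061958, 21584982 to 21586111) and Defa29 (ENSMUSG00000074437, 21815903 to 21817036). All 3 lie on the minus strand, against the plus strand of the other 5 genes. Their coding sequence is longer, at 351 bases, and its last exon part of 179 bases holds all 11 cysteine codons. The 3 genes were 96.6 to 97.4% identical to each other.

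The members thus shared the start of the precursor and differed at its end. The 172 coding bases before the last exon were 89.5 to 93.6% identical between the first and the third group and 90.1 to 91.9% between the first and the second. In the last exon the identity was 38.9 to 40.2% between the first and the third group and 66.7 to 69.0% between the first and the second. Promoter windows of 300 bases, from 250 before to 50 after the start, were at hand for 4 members in a RefSeq table on GRCm38.p6. Those of Defa21 and Defa22 were identical over all 300 bases, whereas those of Defa21 and Defa30 were 65.8% identical. The letters TATAAA (either strand) stood in all 4 windows and in 13.6% of 32544 promoters of the table. The letters CTTTGAT, a form of the TCF and LEF binding motif, stood in those of Defa21, Defa22 and Defa30 and in 3.73% of all promoters, and were not in the window of Defa38.

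Near-identical copies share reads, and how the counting treated such reads is not given in the sources used here. Single-member counts are therefore uncertain, and the measure of this was the share of 75-base stretches of a gene's exons that occur once in the genome. Defa24 was the most distinct, with 91.8% of its stretches unique, followed by Defa39 at 83.4%, Defa30 at 76.2%, Defa29 at 65.0% and Defa38 at 61.1%. Defa22 and Defa21 had 34.2% and 34.1%, since 183 of their 278 and 279 stretches were common to both. Defa17 had 30 unique stretches of 275, or 10.9%, and shared 245 with Defa3, another alpha-defensin gene. Defa38 and Defa29 shared 126 stretches, and Defa24 and Defa30 shared 23. Of the 28 genes, 8 had no unique stretch, and their counts summed over all libraries were between 1 and 24. The other 20 genes, each with at least 1 unique stretch, had 180 to 14858412.

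The 8 genes together took 28.5% of all counts in TG replicate 1, 27.7% in replicate 2, 25.8% in replicate 3 and 26.8% in replicate 4. In WT they took 33.1%, 27.4%, 25.6% and 30.1% in replicates 1 to 4. The TG mean was 27.2 ± 1.17% and the WT mean 29.0 ± 3.28% (SD, n = 4 each), and the groups overlapped, with WT replicates 1 and 4 above and WT replicate 3 below all TG libraries. The difference of -1.87 percentage points became -0.507 without WT replicate 1, -3.01 without WT replicate 3, -2.16 within replicates 1 and 2 and -1.57 within replicates 3 and 4. In bulk samples, fewer cells of a type and less RNA per cell cannot be told apart. Of the counts of all 28 alpha-defensin genes, the 8 members held 98.04 to 98.5% in TG and 97.85 to 97.95% in WT. These ranges did not overlap, and neither did the CPM ranges of 15.6% of all tested genes. Of the other 20 genes, Defa34 had the largest difference in mean CPM, -812 (TG minus WT). Since 8 of the 28 genes had only 1 to 24 counts each, this share of counts need not be one of transcripts.

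Ranked by counts among all genes, Defa24 was second at 12.8% of all counts and held that rank in every library. Defa30 ranked 4 at 4.40%, behind Itln1, an intestinal lectin, and also kept its rank in every library. Defa39, Defa38, Defa21 and Defa22 ranked 5 to 8 at 2.71, 2.47, 2.35 and 2.30%. Defa29 ranked 11 at 0.827%, and Defa17 ranked 17 at 0.287% with a range of 15 to 22 over libraries. The choice of 8 genes ended between Defa17 with 333307 counts over all libraries and Defa26 with 189798. The smallest count of a member was 35212, for Defa17 in WT replicate 3, which is 2589 CPM (counts scaled to a library total of 1000000) with a 95% Wilson interval of 2562 to 2616, so counting error was small against the spread between libraries.

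Defa24 was at 131509, 125780, 118186 and 126121 CPM in TG replicates 1 to 4 and at 144317, 124007, 116873 and 136540 in WT. Its 2 highest values were in WT replicates 1 and 4 and its lowest in WT replicate 3, so that the TG libraries lay inside the WT range. Defa30 was at 49390, 44716, 39944 and 33033 CPM in TG and at 52426, 48576, 38875 and 44037 in WT. The TG range was the wider one here, and TG replicate 4 was the lowest of all 8 libraries. Defa17 was at 2811, 2810, 2665 and 3164 CPM in TG and at 3440, 2600, 2589 and 2897 in WT. In contrast to Defa30, Defa17 was highest in TG replicate 4 among the TG libraries.

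Defa21 was at 20562, 21752, 21292 and 23301 CPM in TG replicates 1 to 4 and at 30392, 24959, 20539 and 25234 in WT. Defa22 was at 19702, 20858, 21208 and 24623 CPM in TG and at 27473, 24331, 20329 and 25695 in WT. The pair moved alike, with 3 of 4 WT libraries above all TG libraries for Defa21, while WT replicate 3 lay within or below the TG range for both genes. TG replicate 4, the lowest library for Defa30, was the highest TG library for Defa21 and Defa22.

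In the third sequence group, Defa39 was at 27153, 27219, 24405 and 26675 CPM in TG and at 32705, 21180, 26790 and 30176 in WT. Defa38 was at 26581, 25926, 22943 and 23001 CPM in TG and at 28909, 20614, 22145 and 27133 in WT. Defa29 was at 7186, 7763, 7131 and 7896 CPM in TG and at 11582, 7479, 8029 and 9068 in WT. WT replicate 2 was the lowest library for Defa39 and Defa38, a library in which Defa30 had the third highest of its values. For Defa29, 3 of 4 WT libraries lay above all TG libraries and WT replicate 2 lay within the TG range. Over all 8 libraries the coefficient of variation was lowest for Defa24, at 7.21%, and highest for Defa29, at 17.8%. Within TG it was lowest for Defa24, at 4.37%, and highest for Defa30, at 16.7%, whereas within WT Defa29 was highest at 20.1%.

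**Figure D1:**
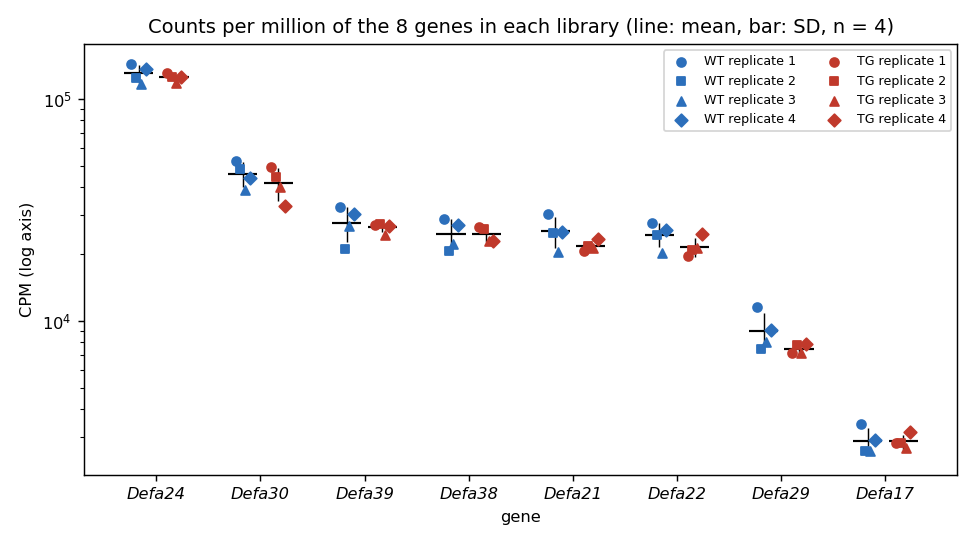
CPM of the 8 genes (x axis) on a log axis, 1 point per library, with WT in blue and TG in red and a marker shape per replicate number. Black lines are group means and bars are SDs over 4 libraries; the groups overlapped for every gene, and TG replicate 4 was lowest for Defa30, at 33033 CPM.

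Levels of different genes were compared per length. Per kilobase of exon, Defa24 led with 297480 CPM, followed by Defa30 with 82316. Next came Defa21 with 55044 and Defa22 with 54055, which on this scale stood above Defa39 with 46457 and Defa38 with 41439. Defa29 and Defa17 closed the order with 16273 and 6790. Of neighbours on this scale, Defa24 was above Defa30 in 8 of 8 libraries by a mean ratio of 3.64, and Defa30 was above Defa21 in 8 of 8. Defa21 and Defa22 did not differ beyond their spread, with a mean ratio of 1.02 that ranged from 0.944 to 1.10. Defa22 was above Defa39 in 7 of 8 libraries, at 0.991 to 1.57 times its level. In the third sequence group Defa39 was above Defa38 in 8 of 8 libraries and Defa38 above Defa29 in 8 of 8, as was Defa29 above Defa17.

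The middle of this order changed with the length used. With the length of the canonical transcript, an alternative chosen after seeing the data, Defa38 stood in the third place at 70246 CPM per kilobase and Defa39 in the sixth at 53329. The count was also divided by the number of unique 75-base stretches, in CPM per 100 stretches. Defa24 still led with 49389. Defa21 with 24741 and Defa22 with 24239 then stood above Defa30 with 18513, although Defa22 was above Defa30 in only 7 of 8 libraries. Defa17 moved from the lowest place to the fifth with 9573, on its 30 unique stretches, next to Defa38 with 9032 and Defa39 with 8983. Defa17 and Defa38 did not differ beyond their spread here, with Defa17 above in 5 of 8 libraries. The places depended on the length of the stretch. With stretches of 50 bases Defa17 was the seventh with 9573, below Defa38 with 11362 and Defa39 with 9940, and Defa22 with 31118 stood above Defa21 with 28663. With stretches of 100 bases Defa17 was the fifth again. This scale assumes that only unique stretches were counted, which was not tested. Defa5, no member, had 9568 on 7 unique stretches of 75 bases and so stood on that scale between Defa17 and Defa38.

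**Figure D2:**
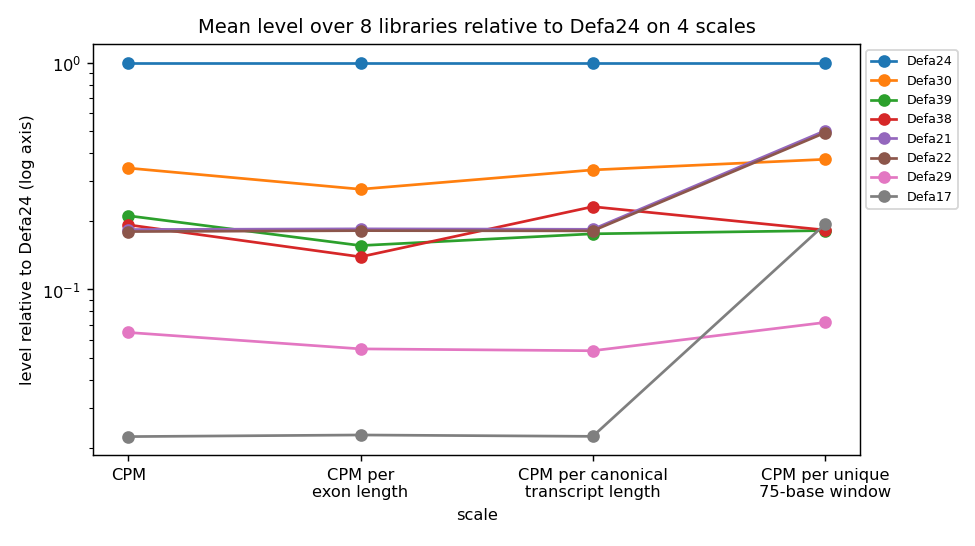
Mean level over 8 libraries relative to Defa24 (log axis) on 4 scales along the x axis, with 1 line per gene. Defa24 was highest on all 4, Defa21 and Defa22 ran together, and Defa17 rose from the lowest place per length to the fifth place per unique stretch of 75 bases, at 9573 CPM per 100 stretches.

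Ratios of counts within a library depend neither on its depth nor on the scaling. Over all libraries, Defa24 made up 45.5% of the summed counts of the 8 genes, Defa30 15.6%, Defa39 9.61%, Defa38 8.78%, Defa21 8.35%, Defa22 8.18%, Defa29 2.94% and Defa17 1.02%. The share of Defa24 was 46.2, 45.4, 45.8 and 47.1% in TG replicates 1 to 4 and 43.6, 45.3, 45.6 and 45.4% in WT. The TG mean was thus 46.1 ± 0.704% and the WT mean 45.0 ± 0.946% (SD, n = 4 each), with TG replicate 2 inside the WT range. The difference of 1.16 percentage points had a two-sided exact permutation p of 0.0571, and the smallest p that 4 against 4 libraries can give is 0.0286. With all 28 alpha-defensin genes as the denominator the difference was 1.31 points with an exact permutation p of 0.0286, unadjusted for the 8 shares. That denominator adds Defa34, whose difference in mean CPM was -812 (TG minus WT). Within replicates 1 and 2 the difference in the share of the 8 was 1.36 points and within replicates 3 and 4 it was 0.961. Without WT replicate 1, where the share was lowest, it was 0.695.

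The share of Defa30 had the largest SD over libraries, 1.68 percentage points, with 17.3, 16.2, 15.5 and 12.3% in TG and 15.8, 17.7, 15.2 and 14.6% in WT. TG replicate 4 was lowest and WT replicate 2 highest, so the extremes fell in both groups (exact permutation p = 0.743). Defa39 made up 9.47 to 9.96% in TG and 7.74 to 10.5% in WT, and its value in WT replicate 2 was the lowest. Defa38 likewise had its lowest share, 7.53%, in WT replicate 2. Defa21 made up 7.22, 7.86, 8.26 and 8.70% in TG and 9.18, 9.12, 8.02 and 8.39% in WT. For Defa21 the difference was -1.61 points within replicates 1 and 2 and 0.277 within replicates 3 and 4, against -0.666 over all libraries (exact permutation p = 0.171). Defa22 showed the same pattern, with -1.37 and 0.472 points against -0.447 over all libraries. Single libraries also moved these differences. Without TG replicate 1 they were -0.402 for Defa21 and -0.0963 for Defa22, and without TG replicate 4 they were -0.897 and -0.856. Defa29 was highest in WT replicate 1, at 3.50%, and lowest in TG replicate 1, at 2.52%. Of the 8 shares, none passed the exact permutation test at 0.05, and the p-values of the other 5 ranged from 0.143 to 0.971 unadjusted.

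**Figure D3:**
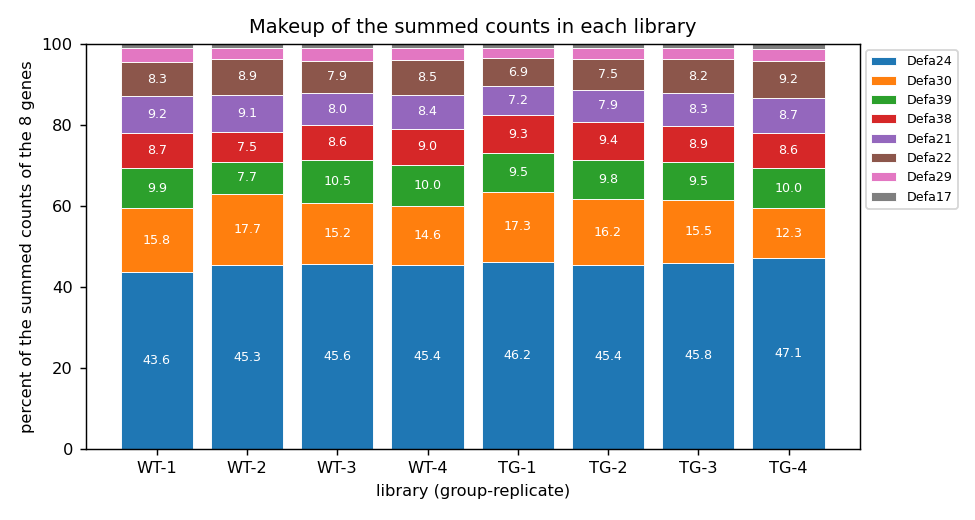
Share of each gene in the summed counts of the 8 genes (y axis, percent) as stacked bars, 1 per library, WT left and TG right. Defa24 took 43.6 to 47.1% in every library, while Defa30 ranged from 12.3% in TG replicate 4 to 17.7% in WT replicate 2.

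By sequence group, the genes of the first group took 60.4 to 64.5% of the summed counts over libraries, those of the second 14.1 to 18.0% and those of the third 18.0 to 22.2%. For all 3 groups the TG and WT ranges overlapped. The third group was held within 21.1 to 22.0% in TG, and in WT it lay between 22.07 and 22.2% in 3 libraries and at 18.0% in replicate 2.

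The count of Defa24 exceeded that of Defa30 by a factor of 2.94 on average (geometric mean over 8 libraries), with a range of 2.55 in WT replicate 2 to 3.82 in TG replicate 4. Its ratio to Defa39 was 4.76, to Defa38 5.21, to Defa21 5.47 and to Defa22 5.58. To Defa29 the ratio was 15.6 with a range of 12.5 to 18.3, and to Defa17 it was 44.6 with a range of 39.9 to 47.7. Among the 7 ratios of Defa24, the one to Defa17 was the steadiest over libraries, with an SD of 0.09 on the log2 scale, and the one to Defa30 the least steady, with an SD of 0.18. Between TG and WT, the log2 ratios of Defa24 to the other members differed by -0.06 to 0.20. None of the 7 passed the two-sided exact permutation test, with unadjusted p from 0.114 to 1.

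Of all 28 ratios between members, that of Defa21 to Defa22 varied least, with an SD of 0.07 on the log2 scale and a range of 0.946 to 1.11. These are the genes with identical promoter windows and 183 shared stretches, and whether either has a part in the steady ratio was not tested. Defa39 to Defa38 followed at an SD of 0.09 and 1.02 to 1.21. The ratio of Defa30 to Defa39 varied most, with an SD of 0.26 and a range of 1.24 to 2.29. Ratios within a sequence group were not in general steadier. The median SD was 0.15 for the 7 ratios within groups and 0.15 for the 21 between groups, and Defa30 to Defa17, within a group, had an SD of 0.25. TG and WT did not overlap for 2 of the 28 ratios, both with Defa29, and the 28 ratios are not independent of each other. For comparison, the CPM of TG and WT did not overlap for 15.6% of all tested genes. Defa39 to Defa29 was at a mean log2 ratio of 1.81 ± 0.07 in TG and 1.62 ± 0.14 in WT, and Defa29 to Defa17 at 1.39 ± 0.07 in TG and 1.64 ± 0.09 in WT, with SDs over 4 libraries each. These 2 were singled out after their values were seen and were not tested.

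The comparison of TG with WT asked whether the level of each gene differed between cells of toxin-expressing and wild type mice. It was fitted with edgeR over 11929 genes, with TMM factors that set each library's scale from the bulk of the genes. Of the 8 members, 0 were called at an adjusted p below 0.05 and 1 had an unadjusted p below 0.05, while 17.9% of all tested genes were called and 9.65% were called lower. DESeq2 and limma voom also called 0, with 3 and 1 members below an unadjusted p of 0.05. The CPM ranges of TG and WT, taken over total counts, overlapped for all 8 members, whereas 15.6% of the tested genes had ranges that did not.

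Fitted log2 fold changes of TG over WT were below 0 for 8 of 8 members, as they were for 48.7% of all tested genes, and their median was -0.25 against 0.01 for all genes. Defa29 had the lowest, -0.42 ± 0.19 (SE), with an edgeR adjusted p of 0.147. Defa21 and Defa22 followed with -0.36 ± 0.19 and -0.31 ± 0.19 and adjusted p of 0.212 and 0.266. Defa30 was at -0.28 ± 0.20 and Defa39 at -0.21 ± 0.20, with adjusted p of 0.340 and 0.482. Defa24 was at -0.19 ± 0.20, Defa38 at -0.15 ± 0.19 and Defa17 at -0.15 ± 0.17, with adjusted p of 0.542, 0.623 and 0.579. An interval of 2 SE on either side of the estimate ran from -0.60 to 0.22 for Defa24 and from -0.80 to -0.03 for Defa29, so a change of Defa24 within those bounds could not be told from none. A test of whether the fold change depended on the presence of Y-linked counts gave adjusted p of at least 0.933 for the 8 genes.

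These values moved with the scaling and with single libraries. With libraries scaled by total counts alone, which shifted the median of all genes from 0.01 to 0.12, Defa24 was at -0.06, Defa38 at -0.01, Defa17 at -0.01 and Defa29 at -0.27, and 0 members were called. Without WT replicate 1, the library with the highest CPM of all 8 genes, Defa38 and Defa17 were at 0.00 and 0.02, Defa39 at -0.05, Defa24 at -0.07 and Defa30 at -0.14, and the lowest were Defa29 at -0.20, Defa21 at -0.19 and Defa22 at -0.19. Without WT replicate 3, the library with the lowest CPM of Defa24, Defa21 and Defa17, the estimates moved the other way, to -0.30 for Defa24, -0.26 for Defa38 and -0.25 for Defa17, and 4 members had an unadjusted p below 0.05 but 0 were called. Without WT replicate 2, Defa39 was at -0.35, Defa38 at -0.26 and Defa17 at -0.23, and without WT replicate 4 Defa38 was at -0.08 and Defa39 at -0.14. Without TG replicate 3 Defa38 and Defa17 were at -0.10 and -0.09, and without TG replicate 4 Defa17 was at -0.24. Without the filter on low counts, Defa21 and Defa29 were called, with edgeR adjusted p of 0.0437 and 0.00785. Within replicates 1 and 2 the log2 fold changes ran from -0.60 for Defa21 to -0.14 for Defa38, and within replicates 3 and 4 from -0.25 for Defa30 to 0.04 for Defa17.

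**Figure D4:**
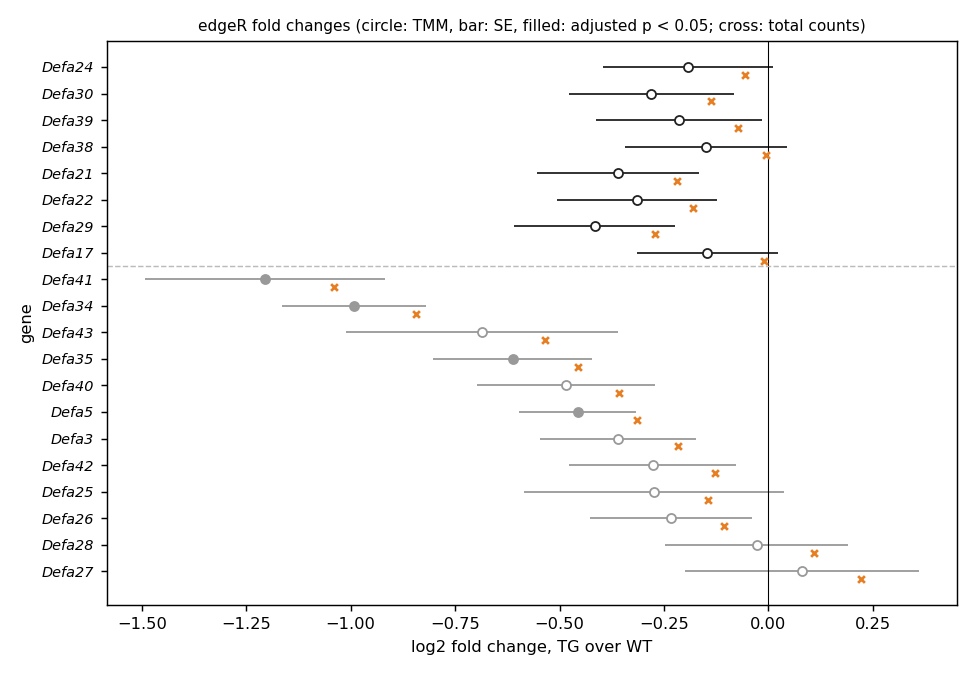
Log2 fold changes of TG over WT from edgeR (x axis) for the 8 members (black, above the dashed line) and the 12 tested other alpha-defensin genes (grey). Circles are TMM fits with SE bars, filled where the adjusted p was below 0.05, and crosses are fits on total counts; no member was filled, and 4 of the other genes were.

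The other 20 alpha-defensin genes had lower counts in this table, where 8 of them have no unique stretch, so that low counts there need not mean low transcript levels, and 12 of the 20 passed the filter. Of these 12, 4 were called lower in TG and 0 higher, 11 had a log2 fold change below 0 and the median was -0.41, against 9.65% of all tested genes called lower. On total counts 2 were called, Defa34 and Defa41, while Defa5 and Defa35 had edgeR adjusted p of 0.0645 and 0.0698. Over all 11929 tested genes, 263 were called lower on total counts, against 1151 with TMM factors. Within replicates 3 and 4 none of the 12 was called by edgeR, and 3 had an unadjusted p below 0.05. In that fit only 216 of 12024 tested genes were called, 103 of them lower, so a count of 0 says little about the 12. Defa34 fell from 1834 ± 347 CPM in WT to 1021 ± 137 in TG (SD, n = 4 each), at a log2 fold change of -0.99 ± 0.17 (SE) and an edgeR adjusted p of 0.00254, and was called in 8 of 8 fits that left out 1 library. Defa41 fell from 78.6 ± 21.0 to 38.2 ± 9.96 CPM, at a log2 fold change of -1.20 ± 0.29 (SE) and an edgeR adjusted p of 0.0280, and was not called without TG replicate 1, TG replicate 2 or WT replicate 4. Defa5 and Defa35, at -0.46 ± 0.14 and -0.61 ± 0.19 with adjusted p of 0.0377 and 0.0497, were called in only 2 of these 8 fits each, those without WT replicates 2 and 3. Defa26 and Defa40, next in counts after the members along with Defa34, were at -0.23 ± 0.19 and -0.48 ± 0.21 with adjusted p of 0.427 and 0.139. Without TG replicate 4, Defa40 was called at -0.71 with an edgeR adjusted p of 0.0146, and Defa26 was at -0.44 and not called. No other fit that left out 1 library called Defa40. It was called with a term for replicate number, within replicates 1 and 2 and without the filter, with edgeR adjusted p of 0.0208, 0.0230 and 0.0424. Whether these genes changed more than the 8 members was not tested.

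Genes that make, fold and sort these peptides were taken from lists. Of 12 granule and processing genes, 4 were called lower in TG and 0 higher, with a median of -0.23, where 9.65% of all tested genes were called lower. On total counts alone the list had 3 genes called lower and 1 higher (Pnliprp2), with a median of -0.10 against 0.12 for all genes. Of all 11929 tested genes, 263 were called lower and 787 higher on that scale. Without 1 library at a time, 1 to 5 were called lower: 1 without TG replicate 2 (Mptx2), and 2, Mmp7 and Mptx2, without TG replicate 1, TG replicate 3, WT replicate 1 or WT replicate 4. Over all genes, 553 to 1183 of 12000 to 12140 tested were called lower in these fits. Mmp7, which activates the cryptdin precursors, fell from 5650 ± 597 to 4135 ± 361 CPM (SD, n = 4 each; log2 fold change -0.59, edgeR adjusted p 0.0179). Ang4, an antimicrobial ribonuclease, Mptx2, a pentraxin, and Cd24a, a surface protein of Paneth cells, were the other called genes, at -0.57, -1.35 and -0.40. Lyz1 and Itln1, the granule genes of the highest counts, were at 0.07 and -0.10 with adjusted p of 0.832 and 0.743. Of 16 genes for entry into and folding in the endoplasmic reticulum, 10 were called lower and 0 higher, with a median of -0.41. The share of all tested genes called lower in that fit was 9.65%. On total counts alone 4 were called lower (Calr, Ero1a, Hspa5 and Pdia4) and 0 higher, with a median of -0.31. On that scale 263 of all 11929 tested genes were called lower, against 1151 with TMM factors. Without 1 library at a time, 4 to 11 were called lower, with 4 without TG replicate 1 or TG replicate 2 and 5 without WT replicate 4. Calr, Ero1a and Hspa5 were called lower each time. Over all genes, 553, 570 and 852 were called lower in those 3 fits, against 1151 with all libraries. Among the 10 were the protein disulfide isomerases Pdia3, Pdia4 and Pdia6 at -0.49, -0.93 and -0.45, the oxidase Ero1a at -1.05 and the chaperone Hspa5 at -0.97. Of 12 transcription factors and sensors, Fzd5, a Wnt receptor, was called higher at 0.42. Tcf7l2, a Wnt effector known to act on cryptdin genes, and Nod2, a sensor of bacterial cell walls, were called lower at -0.32 and -1.04. On total counts alone neither was called, and of the 8 fits without 1 library, Tcf7l2 was called only in that without WT replicate 1 and Nod2 only in that without TG replicate 4. Fzd5 was called higher on total counts and in each of these 8 fits except the one without TG replicate 2. Xbp1 and Sox9 were at 0.00 and -0.12 and were not called.

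Co-variation over the 8 libraries was described on log2 CPM with TMM factors. For the 28 pairs of members, Pearson's r ran from 0.61 to 0.98 with a median of 0.90, and Spearman's rho had a median of 0.73. The highest r was that of Defa21 with Defa22 and the second that of Defa39 with Defa38, at 0.98 and 0.96. The lowest r were pairs of Defa30, at 0.61 with Defa39, 0.62 with Defa17 and 0.64 with Defa22. The median was 0.92 for the 7 pairs within a sequence group and 0.90 for the 21 between groups. When values were replaced by deviations from the group means, the median was 0.89. When libraries were scaled by total counts alone, r ran from 0.10 to 0.94 with a median of 0.67, so the size of the co-variation depended on the scaling. TMM factors were lowest in WT replicates 1 and 4, at 0.845 and 0.895, the libraries with the highest share of counts in the 8 genes.

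For Defa24 with each of the other 7 genes, r was 0.79 with Defa30, 0.90 with Defa39, 0.93 with Defa38, 0.94 with Defa21, 0.91 with Defa22, 0.93 with Defa29 and 0.95 with Defa17. The exact permutation p of these 7 ran from 0.000223 to 0.0169, unadjusted. Spearman's rho ran from 0.64 for Defa30, with an exact permutation p of 0.0962, to 0.95 for Defa17, with an exact permutation p of 0.00114. Without the 2 libraries farthest from the median of Defa24, WT replicates 1 and 4, r was 0.37 for Defa30, 0.48 for Defa39, 0.59 for Defa29, 0.67 for Defa38 and for Defa22, 0.71 for Defa21 and 0.86 for Defa17. All 7 values were thus lower without these 2 libraries, which were chosen by their Defa24 level and whose removal narrows its range. On total counts r ran from 0.58 for Defa30 to 0.83 for Defa38. The exact permutation p was then 0.131 for Defa30 and 0.0786 for Defa22 and between 0.0104 and 0.0437 for the other 5, so 2 of the 7 were below 0.05 with TMM factors alone. On that scale, without the same 2 libraries, r ran from -0.24 for Defa29 to 0.61 for Defa38. No r is given within a group, which holds too few libraries.

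**Figure D5:**
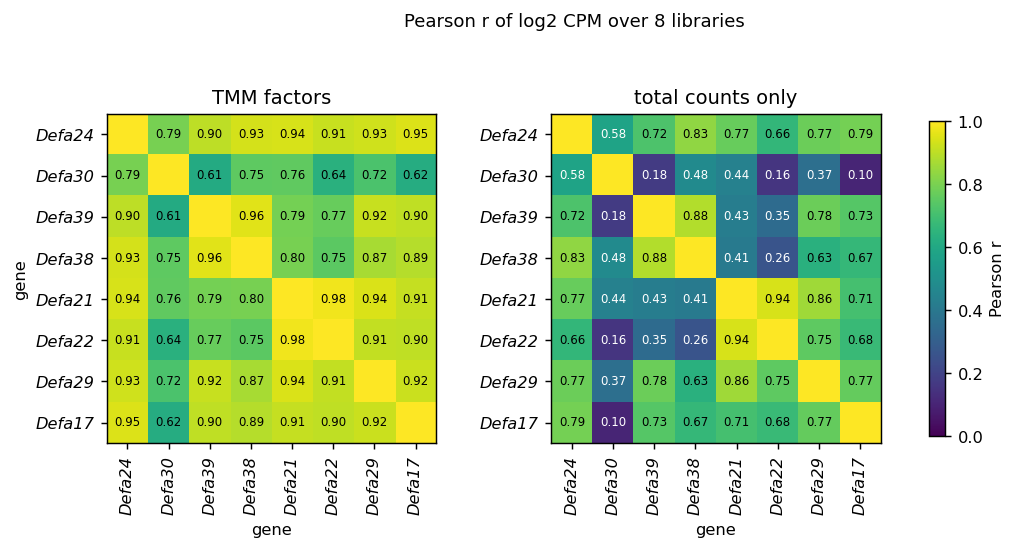
Pearson's r of log2 CPM over 8 libraries for each pair of members, with TMM factors on the left and with total counts only on the right. Defa21 with Defa22 had 0.98 and 0.94, while the lowest value on either scale was in a pair with Defa30, 0.61 with Defa39 with TMM factors and 0.10 with Defa17 on total counts.

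Outside the family, 5 genes with a mean log2 CPM of at least 5 were most like Defa24 over the 8 libraries with TMM factors. They were Grina, Sh3glb1, the lectin Itln1, Itfg1 and Pld3, with r of 0.97, 0.97, 0.97, 0.96 and 0.96. On total counts their r with Defa24 was 0.34, -0.76, 0.79, 0.65 and 0.80, so the likeness of Sh3glb1 turned around with the scaling while Itln1 and Pld3 stayed high. Over all 3485 genes ranked, the median r with Defa24 was 0.25 with TMM factors and -0.57 on total counts. Among those 3485 genes, r with Defa24 placed Defa17 at 14, Defa21 at 18, Defa38 at 22, Defa29 at 28, Defa22 at 37, Defa39 at 44 and Defa30 at 185. Defa3, which shares most of its stretches with Defa17, stood at 5 with an r of 0.96.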

How the data were processed

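The deposited file was a table of raw counts, made by the authors, for 55414 Ensembl IDs, of which 54749 matched GENCODE M39. The submitters' processing notes name STAR 2.7.0a, FastQC 0.12.0, DESeq2 and mm39, and the study's methods name another STAR version. The counting tool, its use of strand and its treatment of reads with several alignments of this table are not stated in the sources used here.

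Groups came from the labels. Replicates were checked for duplicated libraries, and chi-square divided by its degrees of freedom was at least 5.20, so all 8 were kept. CPM are counts scaled to a library total of 1000000. Counts were tested with edgeR 4.0.16 in R 4.3.3 (robust quasi-likelihood, TMM, default filter by group, group as the only term, Benjamini-Hochberg adjustment over 11929 genes, threshold 0.05), a script tested on simulated data. Over all genes 985 were called higher and 1151 lower, or 787 and 263 with total counts in place of TMM. Log2 CPM used a prior count of 2. Shares and ratios were compared by exact permutation over the 70 assignments of 4 libraries out of 8. Intervals of counts are Wilson intervals and cover only counting error, as the reads carry no molecular identifiers. Unique stretches were exon windows of 75 bases that occur once in GRCm39 on either strand, with windows across exon junctions left out. Promoter windows came from RefSeq on GRCm38.p6.

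The members and gene lists were chosen with earlier results of these data known. Named genes were all members, of the other alpha-defensin genes those called and the 3 most abundant, the 5 genes most like Defa24 and members of the lists. Genes in a list were named after their values were seen where only a few of the list are given. Alternatives were DESeq2 1.42.0, limma 3.58.1 with voom, other scalings, other filters, a replicate block, a term for Y-linked counts, each library left out in turn, other denominators, and other lengths and windows. The recounts of the gene lists and the canonical transcript length were chosen after seeing the data.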

Additional observations from a re-analysis of the deposited data

Results flagged for a closer look

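The share of Defa24 in the summed counts of the 8 genes was 43.6% in WT replicate 1, far below the 45.3 to 45.6% of the other 3 WT libraries. The gap made up 0.843 of the range of the WT group. Of 34 groups of 4 values examined, 1 stood out in this way, and about 1.7 would by chance. WT replicate 1 was also the library with the highest CPM of all 8 genes and the lowest TMM factor, 0.845.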

How the results depend on the processing

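Of 19 alternatives for the fits of the members, 18 called 0 of the 8 genes and 1, the fit with no filter on low counts, called 2. There Defa21 was at -0.36 and Defa29 at -0.42. With 1 library left out, Defa38 ran from -0.26 and Defa17 from -0.25, both without WT replicate 3, to the values that follow. Of 152 refitted log2 fold changes, 3 changed sign: Defa38 at 0.00214 and Defa17 at 0.0216 without WT replicate 1, and Defa17 at 0.0397 within replicates 3 and 4. The cause was not tested. For the other alpha-defensin genes, 4 were called, 2 with total counts only, 0 within replicates 3 and 4, and 1 to 4 when 1 library was left out. Over all genes, 2136 were called, 1050 with total counts only, 216 within replicates 3 and 4, and 1055 to 2228 when 1 library was left out. Leaving out 1 library moved the median correlation from 0.90 to between 0.789 (without WT replicate 1) and 0.932, and it was 0.672 with total counts only and 0.726 as Spearman's rho. With all 28 genes as the denominator, 1 share passed the permutation test, that of Defa24, at the smallest possible exact permutation p of 0.0286, unadjusted. The rank order changed place for 4 of the 8 genes per exon length and per canonical transcript length, and for 7 of the 8 per unique stretch of 75, 50 or 100 bases. With the replicate block, 0 members and 5 other alpha-defensin genes were called, and 2203 of all genes against 2136. Same-numbered libraries correlated in their deviations from the group means at 0.0762, 0.0666, 0.286 and 0.231, and TG replicate 1 correlated best with WT replicate 2, so the numbers were not taken to pair the libraries. In the blocked share tests the smallest p that 4 pairs can give is 0.125. Each member had at least 35212 counts in a library, so counting error was small beside the spread between libraries.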
